A study of Mus musculus with 6 samples.

Results

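The LIM homeobox genes encode transcription factors that carry paired zinc-binding LIM domains beside a DNA-binding homeodomain. Occupancy of Rybp was examined at 10 of them, named by symbol, namely Lhx1, Lhx2, Lhx3, Lhx4, Lhx5, Lhx6, Lhx8, Lhx9, Isl1 and Lmx1a. The probes were those that the array annotation assigns to each gene by symbol or accession. This gave 325 probes at 8 of the 10 genes, out of 16406 genes with enough probes for a value, and Lhx3 and Lhx4 were not analysed here. Measured values played no part in choosing the probes.

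LIM homeobox factors specify neuron types and regions of the embryo, and most are silent in embryonic stem (ES) cells. Lhx1 and Lhx5 form one subfamily, with roles in the head organizer and in the forebrain, and Lhx2 and Lhx9 another, with roles in forebrain, eye, limb and gonad. Lhx6 and Lhx8 act in cortical interneurons and in cholinergic neurons of the basal forebrain. Isl1 acts in motor neurons, heart progenitors and pancreatic islets, and Lmx1a in midbrain dopamine neurons and the roof plate. Rybp belongs to the variant forms of Polycomb repressive complex 1, which ubiquitinates histone H2A, and silent developmental genes of ES cells are known targets of Polycomb complexes.

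The study measured Rybp by chromatin immunoprecipitation and promoter arrays (ChIP-chip) in mouse ES cells of 3 genotypes. Dnmt1-KO cells lack the maintenance DNA methyltransferase Dnmt1, Eed-KO cells lack Eed, a core subunit of the histone H3 methyltransferase Polycomb repressive complex 2, and WT cells are wild type. The labels give no line, clone or allele for any genotype, and they allow for growth with or without irradiated feeder fibroblasts, not saying which genotype had them. Precipitated (IP) DNA carried Cy5 and input DNA Cy3 on every array. The promoter set has 2 array designs with different probes, so there were 6 arrays, and each promoter was measured on 1 array per genotype. With no replicates there is no test between genotypes and no p-value, and precision is limited by the small number of arrays. The arrays measured DNA, so the labelled cell type was not checked against marker genes.

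The level of a probe is its log2 ratio of IP to input after subtracting the array median, so that 1 stands for 2-fold IP over input. A gene is summarised by the mean of 6 neighbouring probes, called its window, placed where the average of the 3 genotypes is highest, and a gene counts as bound where that mean is 1 or more. The standard deviation (SD) is that of the 6 probes, and the standard error (SE) of a difference is that of the 6 paired probe differences. Both cover scatter between probes and no variation between cultures or hybridisations.

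The arrays differed between genotypes in ways that touch every Dnmt1-KO value. The SD of probe log2 ratios was 0.96 and 0.91 on the Dnmt1-KO arrays, 0.45 and 0.47 on the Eed-KO arrays and 0.41 and 0.42 on the WT arrays. The Dnmt1-KO arrays were scanned on another scanner model and extracted with another software version, so genotype and scan cannot be told apart for them. Across probes the correlation with WT, given as a description, was 0.53 and 0.52 for Dnmt1-KO and 0.74 and 0.73 for Eed-KO. Differences from WT are therefore given as measured and also after the arrays of a design were set to 1 common spread (the same median absolute deviation), both with the windows kept and with windows chosen anew. The placing of the windows itself rests on an average that includes the wide Dnmt1-KO arrays, so values with windows chosen on Eed-KO and WT are given too.

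Below are single probes upstream of 4 of the genes, which do not stand for all of the DNA that the arrays read there. Each is the probe with the highest WT level in its window, written as the array files give it, with CpG, the dinucleotide that Dnmt1 methylates, in capitals.
Lhx5: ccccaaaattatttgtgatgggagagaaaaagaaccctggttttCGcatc
Lhx2: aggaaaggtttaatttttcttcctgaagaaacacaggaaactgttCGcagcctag
Isl1: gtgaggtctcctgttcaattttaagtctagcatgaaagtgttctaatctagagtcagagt
Lmx1a: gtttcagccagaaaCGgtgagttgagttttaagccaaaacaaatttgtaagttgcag

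These probes lay 282 bp, 512 bp, 869 bp and 1401 bp upstream of the annotated starts of Lhx5, Lhx2, Isl1 and Lmx1a. They hold at most 1 CpG each and between 38.3% and 42.0% G and C. The mean over all 6 probes of the window was 52.4% at Lhx5, 58.0% at Lhx2, 42.9% at Isl1 and 56.2% at Lmx1a. The probes shown are thus poorer in G and C than their windows. The Lhx5 probe had a level of 2.86 in Dnmt1-KO, 2.08 in Eed-KO and 1.63 in WT cells. The Lhx2 probe had 4.52 in Dnmt1-KO, 1.91 in Eed-KO and 1.96 in WT cells. The Isl1 probe, with 0 CpG, had 1.12 in Dnmt1-KO, 1.90 in Eed-KO and 1.57 in WT cells, and was thus lowest in Dnmt1-KO. The Lmx1a probe had 2.46 in Dnmt1-KO, 1.36 in Eed-KO and 1.44 in WT cells.

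A pair of upstream sequences from RefSeq (build GRCm38.p6) shows how far the promoters differ in CpG content, which was 4 at Lhx8, the lowest of the 7 genes matched, and 37 at Isl1, the highest, in the 300 bases around the start. The median over all 32851 RefSeq mouse promoters was 7, with quartiles of 3 and 20. Shown are the 250 bases before the start, 5′ to 3′ on the minus strand of both genes, at chr3:154330561-154330810 for Lhx8 and chr13:116309689-116309938 for Isl1, with CpG in capitals.
Lhx8: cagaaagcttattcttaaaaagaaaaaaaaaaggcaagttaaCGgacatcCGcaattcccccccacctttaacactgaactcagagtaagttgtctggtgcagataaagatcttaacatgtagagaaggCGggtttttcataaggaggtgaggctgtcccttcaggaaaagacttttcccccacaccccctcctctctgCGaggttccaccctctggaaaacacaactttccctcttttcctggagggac
Isl1: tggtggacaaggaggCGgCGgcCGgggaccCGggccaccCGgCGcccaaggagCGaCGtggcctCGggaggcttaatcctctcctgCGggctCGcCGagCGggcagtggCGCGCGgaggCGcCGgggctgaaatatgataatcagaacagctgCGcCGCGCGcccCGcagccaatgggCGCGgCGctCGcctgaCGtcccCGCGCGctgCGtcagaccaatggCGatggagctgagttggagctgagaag

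The probe inside the Lhx8 sequence, 151 bp before the start, had a level of 1.63 in Dnmt1-KO, 1.15 in Eed-KO and 1.12 in WT cells. Of the probes inside the Isl1 sequence, the one 116 bp before the start had 1.06 in Dnmt1-KO, -0.27 in Eed-KO and 0.33 in WT cells, and the one 12 bp before it had 0.33, 0.63 and 0.72 in the same order of genotypes. The CpG-poor Lhx8 promoter thus had IP over input above 2-fold at its probe in all genotypes, and the CpG-rich Isl1 promoter reached that level at 1 probe in Dnmt1-KO cells. The letters TCCCGC, which occur in sites of E2F factors, and the E-box CACGTG were searched on both strands of 10 RefSeq promoters of the 7 genes. TCCCGC was found in 1 of them, the upstream promoter of Lhx2, with 3 copies, against 20.0% of all promoters, and CACGTG in 0 of them, against 7.15% of all promoters.

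Rybp occupied most of these genes in all 3 genotypes. Bound were 8 of 8 genes in Dnmt1-KO, 7 of 8 in Eed-KO and 6 of 8 in WT cells, against 46.1%, 5.76% and 5.15% of the 16327 promoter windows. The median level of the 8 genes was 2.33 in Dnmt1-KO, 1.38 in Eed-KO and 1.19 in WT cells, where the medians of all windows were 0.92, 0.21 and 0.27. The Eed-KO and WT shares of bound genes thus stood far above the background, whereas in Dnmt1-KO a large share of all windows was bound. With windows chosen on Eed-KO and WT, 6 of 8 genes were bound in Dnmt1-KO, 8 of 8 in Eed-KO and 7 of 8 in WT cells. The shares of all windows were then 35.2%, 6.6% and 5.82%. Lhx9, at 0.58, and Isl1, at 0.70, were the genes below the bound level in Dnmt1-KO in those windows.

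**Figure D1:**
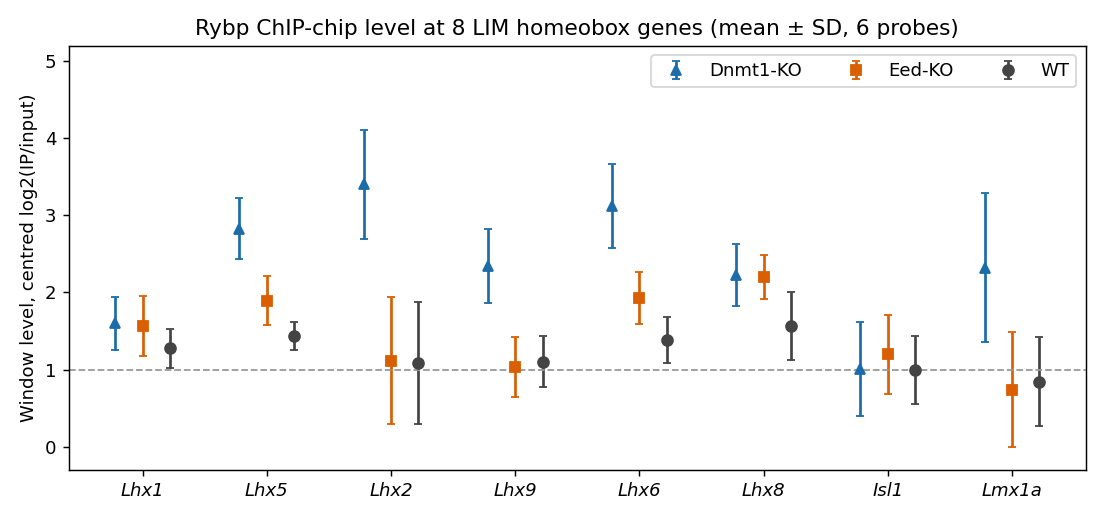
Rybp level (y axis, centred log2 of IP over input) in the window of each LIM homeobox gene (x axis), for Dnmt1-KO, Eed-KO and WT cells, 1 array each. Points are means and bars SDs over 6 probes, and the dashed line marks the bound level of 1. All 8 genes lie at or above the line in Dnmt1-KO, and Isl1 and Lmx1a lie under it in WT.

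Lhx1 and Lhx5, the head organizer and forebrain subfamily, were bound in all 3 genotypes. The Lhx1 window lay inside the gene on chromosome 11 (84340084 to 84340926, in the coordinates of the array annotation, for which the genome build was not given in the sources used here), centred about 1.2 kb downstream of the start. Its level was 1.60 ± 0.34 in Dnmt1-KO, 1.56 ± 0.38 in Eed-KO and 1.27 ± 0.25 in WT cells (SD, 6 probes). The Lhx5 window spanned the start on chromosome 5 (120691831 to 120692775), with 3 probes annotated as promoter and 3 as inside the gene. Its level was 2.83 ± 0.39 in Dnmt1-KO, 1.90 ± 0.32 in Eed-KO and 1.43 ± 0.18 in WT cells, and every Dnmt1-KO probe, from 2.29 upwards, lay above every WT probe, of which the highest was 1.63. With the arrays set to 1 spread the Dnmt1-KO probes, from 1.34 to 2.04, overlapped the WT probes, from 1.57 to 2.20. The window was placed on an average that includes Dnmt1-KO. How many of all windows had such a separation as measured was not computed.

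Lhx2 and Lhx9, the forebrain, eye, limb and gonad subfamily, were also bound in all genotypes. The Lhx2 window, on chromosome 2 (38172777 to 38174351), extended over the start with 2 promoter probes and 4 probes inside the gene. Its level was 3.40 ± 0.71 in Dnmt1-KO, 1.12 ± 0.82 in Eed-KO and 1.08 ± 0.79 in WT cells. Single probes in it varied between 2.70 and 4.52 in Dnmt1-KO, between 0.03 and 2.07 in Eed-KO and between -0.005 and 1.96 in WT cells, so that, as measured, the lowest Dnmt1-KO probe lay above the highest probe of Eed-KO and of WT. The window was placed on an average that includes Dnmt1-KO, and the share of all windows with such a separation was not computed. In the window chosen on Eed-KO and WT the probes overlapped as measured. The lowest Dnmt1-KO probe there was at 1.29, and the highest WT probe was at 1.70. With the arrays set to 1 spread in the window as first placed the probes overlapped as well. The lowest Dnmt1-KO probe was then at 1.58, and the highest was at 2.62 in Eed-KO and 2.64 in WT cells. The Lhx9 window, on chromosome 1 (140658019 to 140658925), lay almost wholly inside the gene, with a level of 2.34 ± 0.48 in Dnmt1-KO, 1.04 ± 0.39 in Eed-KO and 1.1 ± 0.33 in WT cells.

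The probe 7 bp upstream of the Lhx2 start had the largest difference between Dnmt1-KO and WT of all Lhx2 probes, for which it was singled out after its value was seen. It holds 2 CpG, in capitals, and 60.0% G and C.
Lhx2: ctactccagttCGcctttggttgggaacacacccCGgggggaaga

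Its level was 3.0 in Dnmt1-KO, 0.35 in Eed-KO and -0.005 in WT cells.

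Lhx6 and Lhx8, of interneurons and cholinergic neurons, were bound in all 3 genotypes. Both windows lay inside the gene, on chromosome 2 (35924867 to 35925800) for Lhx6 and on chromosome 3 (154264254 to 154265243) for Lhx8. Lhx6 had a level of 3.12 ± 0.54 in Dnmt1-KO, 1.92 ± 0.34 in Eed-KO and 1.38 ± 0.30 in WT cells. Lhx8 had a level of 2.23 ± 0.40 in Dnmt1-KO, 2.20 ± 0.29 in Eed-KO and 1.56 ± 0.44 in WT cells. As measured, both knockouts thus had nearly the same level at Lhx8, and Dnmt1-KO stood above Eed-KO at Lhx6. With the arrays set to 1 spread, Lhx8 had 1.30 in Dnmt1-KO and 2.79 in Eed-KO cells, and Lhx6 had 1.82 in Dnmt1-KO and 2.44 in Eed-KO cells, so Dnmt1-KO was then the lower at both.

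Isl1, of motor neurons and heart progenitors, and Lmx1a, of dopamine neurons, had the lowest WT levels of the 8 genes, with windows wholly upstream of the start. Isl1, on chromosome 13 (117430789 to 117431642), had a level of 1.01 ± 0.61 in Dnmt1-KO, 1.20 ± 0.51 in Eed-KO and 0.99 ± 0.44 in WT cells. Lmx1a, on chromosome 1 (169524639 to 169525441), had a level of 2.32 ± 0.97 in Dnmt1-KO, 0.74 ± 0.75 in Eed-KO and 0.84 ± 0.58 in WT cells. Lmx1a was the 1 gene under the bound level in both Eed-KO and WT.

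The order of the genes by level was not resolved within WT or Eed-KO. In WT it ran Lhx8, Lhx5, Lhx6, Lhx1, Lhx9, Lhx2, Isl1 and Lmx1a, with gaps between neighbours of at most 0.17, under the larger SD of the pair in 7 of 7 cases. In Eed-KO it ran Lhx8, Lhx6, Lhx5, Lhx1, Isl1, Lhx2, Lhx9 and Lmx1a, with gaps of at most 0.37, again under the larger SD in 7 of 7 cases. In Dnmt1-KO it ran Lhx2, Lhx6, Lhx5, Lhx9, Lmx1a, Lhx8, Lhx1 and Isl1, and 2 of 7 gaps were larger than the SD, that of 0.48 between Lhx5 and Lhx9 by a narrow margin and that of 0.63 between Lhx8 and Lhx1.

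Each gene was also ranked among all windows of the same genotype. In these windows the 8 genes lay between percentiles 88.0 and 99.96 in Eed-KO and between 90.8 and 99.7 in WT. In Dnmt1-KO 6 of them lay at percentile 94.0 or above, whereas Lhx1 lay at percentile 79.8, against 98.4 in WT, and Isl1 at 54.3, against 94.6 in WT. Lmx1a stood higher by rank in Dnmt1-KO, at percentile 95.2, than in WT, at 90.8, and so did Lhx2, at 99.7 against 96.3. With windows chosen on Eed-KO and WT, Lhx1 lay at percentile 86.3 and Isl1 at 51.3 in Dnmt1-KO, against 98.2 and 95.1 in WT, and Lhx9 lay at 45.7 in Dnmt1-KO, against 96.5 in WT. In those windows Lmx1a and Lhx2 no longer stood higher in Dnmt1-KO, with percentiles of 91.7 and 97.3, than in WT, with 93.3 and 98.5.

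**Figure D2:**
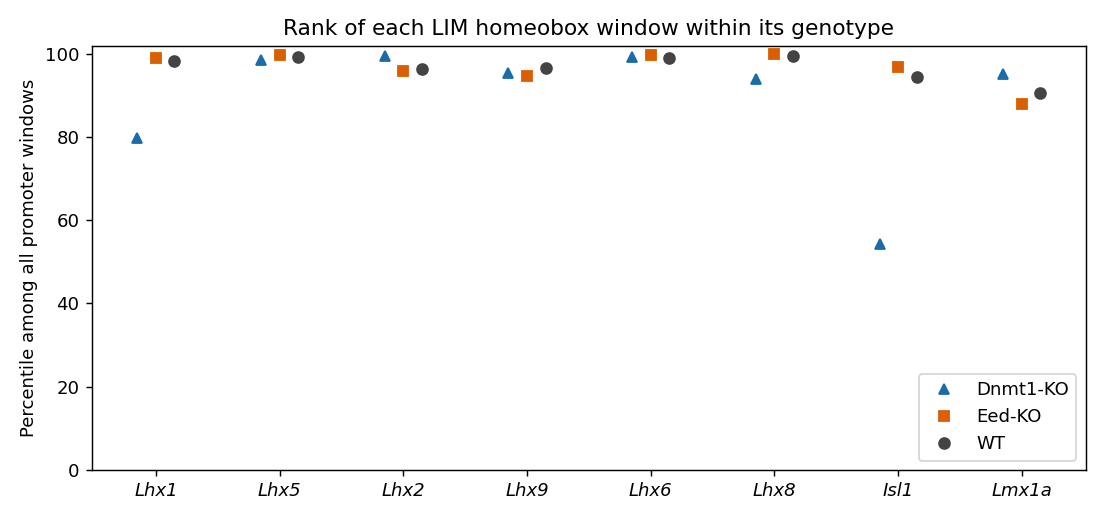
Percentile of each LIM homeobox window (x axis) among all promoter windows of the same genotype (y axis), for Dnmt1-KO, Eed-KO and WT cells. The Dnmt1-KO points of Lhx1 and Isl1, at 79.8 and 54.3, lie apart from all others, which are at 88.0 or above.

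Eed-KO cells, compared with WT cells, address whether Rybp stays on these genes without Polycomb repressive complex 2. The difference, Eed-KO minus WT, was above 0 at 6 of 8 genes, against 40.7% of all windows, with a median of 0.25 for the 8 genes and -0.04 for all windows. It was 0.63 ± 0.15 (SE over 6 probes) at Lhx8 and 0.54 ± 0.08 at Lhx6, with 6 of 6 probes higher in Eed-KO at both. It was 0.46 ± 0.17 at Lhx5 and 0.29 ± 0.09 at Lhx1, with 5 of 6 probes higher at both, and 0.21 ± 0.10 at Isl1, with 4 of 6 probes higher.

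At the forebrain and eye pair the genotypes were close, with differences of 0.03 ± 0.11 at Lhx2 and -0.07 ± 0.10 at Lhx9, and at Lmx1a the difference was -0.11 ± 0.10, each about as large as its SE or smaller. A difference of 1 or more in size was reached at 0 of 8 genes in either direction, and over all windows at 0.00612% higher and 0% lower. With the arrays set to 1 spread, 5 of 8 differences were above 0 in the same windows, against 35.6% of all windows, and 7 of 8 in windows chosen anew, against 36.6%. Over the probes within 1000 bp of the start the median of the 8 genes was 0.10, and with 1 spread as well it was -0.004, with 3 of 8 above 0, against 33.7% of all promoters. With windows chosen on Eed-KO and WT the median was 0.24, with 8 of 8 above 0, against 46.6% of all windows. The size of the median Eed-KO difference thus depended on the region taken and, within it, on the spread, and the value of -0.004 lay near 0. Input signal, centred on each array, differed between Eed-KO and WT by -0.14 to 0.40 at the windows as first placed. It was lower in Eed-KO at Lhx6 and Lhx8, by 0.14 and 0.11, and its part in the differences was not tested.

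Dnmt1-KO cells, compared with WT cells, address whether Rybp depends on maintenance DNA methylation at these genes. As measured, Dnmt1-KO minus WT was above 0 at 8 of 8 genes, against 83.9% of all windows, with a median of 1.32 for the 8 genes and 0.61 for all windows. With windows chosen on Eed-KO and WT the median of the 8 genes was 0.77, with 6 of 8 above 0, against 68.3% of all windows, and over the probes within 1000 bp of the start it was 0.86. In the windows as placed, the difference reached 1 at 5 of 8 genes, against 24.9% of all windows, and was -1 or less at 0 of 8, against 0.0184%. These were Lhx2 with 2.32 ± 0.33 (SE over 6 probes), Lhx6 with 1.73 ± 0.22, Lmx1a with 1.48 ± 0.43, Lhx5 with 1.39 ± 0.17 and Lhx9 with 1.24 ± 0.20. With windows chosen on Eed-KO and WT it reached 1 at 3 of 8 genes, against 13.8% of all windows, and was 1.04 ± 0.23 at Lhx2, 0.88 ± 0.43 at Lmx1a and -0.55 ± 0.13 at Lhx9.

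The other genes had smaller differences, with 0.67 ± 0.27 at Lhx8, 0.32 ± 0.14 at Lhx1 and 0.02 ± 0.36 at Isl1. With the arrays set to 1 spread and the windows kept, 2 of 8 differences were above 0, against 65.4% of all windows, namely 0.53 ± 0.39 at Lhx2 and 0.22 ± 0.36 at Lmx1a. The others were -0.05 ± 0.18 at Lhx6, -0.12 ± 0.18 at Lhx9, -0.28 ± 0.13 at Lhx5, -0.71 ± 0.34 at Isl1, -0.73 ± 0.13 at Lhx1 and -0.81 ± 0.28 at Lhx8. The median over the 8 genes was -0.20, where all windows had 0.13.

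When windows were also chosen anew on the scaled values, the windows of Lhx2 and Lmx1a moved and their differences became -0.40 ± 0.14 and -0.22 ± 0.23. Then 0 of 8 differences were above 0, against 57.7% of all windows, and 0 of 8 reached 1 in size, against 0.539% higher and 0.509% lower. Over the probes within 1000 bp of the start, with 1 spread, 3 of 8 were above 0, against 60.4% of all promoters, namely Lhx2 with 0.67 ± 0.32, Lhx6 with 0.19 ± 0.20 and Lmx1a with 0.12 ± 0.26. Whether Dnmt1-KO lay above or below WT therefore depended on the spread of the arrays at Lhx1, Lhx5 and Lhx8, on the spread and the region at Lhx2, Lhx6 and Lmx1a, and on either of them at Lhx9 and Isl1.

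**Figure D3:**
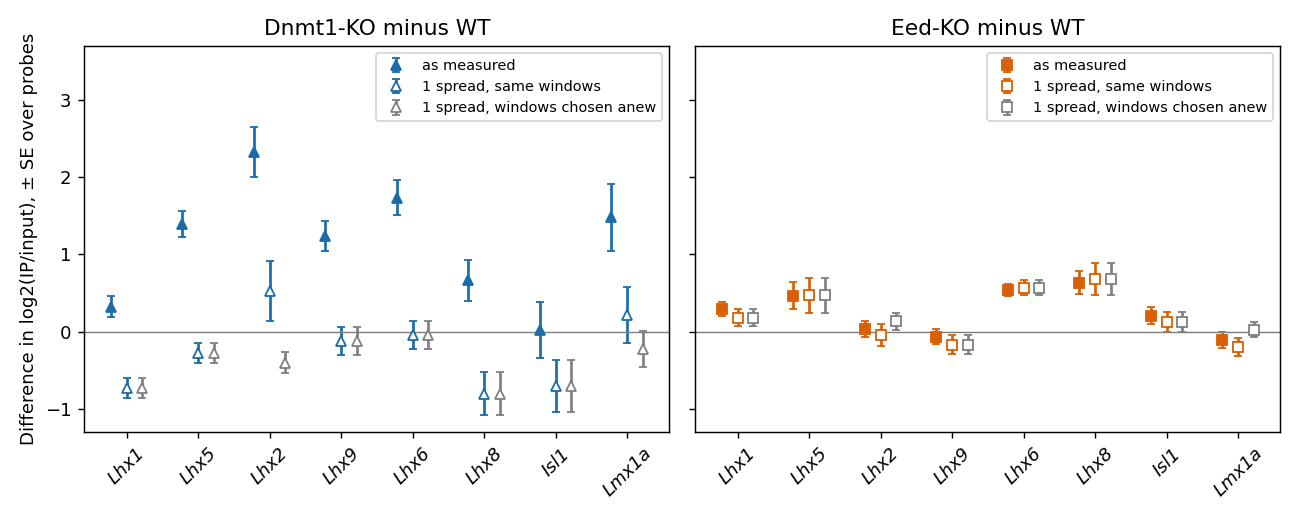
Difference in log2 of IP over input from WT for each LIM homeobox gene, Dnmt1-KO minus WT on the left and Eed-KO minus WT on the right. Filled points are values as measured, open coloured points values with the arrays set to 1 spread in the same windows, open grey points those with windows chosen anew, and bars SEs over 6 probes. The common spread lowers all 8 Dnmt1-KO differences, of which those of Lhx2 and Lmx1a stay above 0 in the same windows, and the Eed-KO differences of Lhx1, Lhx5, Lhx6, Lhx8 and Isl1 are above 0 in each of the 3 sets.

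With 1 spread and windows chosen anew, 6 of 8 genes were bound in Dnmt1-KO, 8 of 8 in Eed-KO and 8 of 8 in WT cells, against 16.5%, 10.6% and 13.5% of all windows. Lhx1 and Isl1 were the genes below the bound level in Dnmt1-KO, at 0.98 and 0.62. Input signal, centred on each array, was higher in Dnmt1-KO than in WT at all windows as first placed, by 0.58 at Isl1 up to 2.80 at Lhx5. At Lhx1 and Lhx6 it was higher by 1.83, where the Dnmt1-KO differences as measured were 0.32 and 1.73. The part of input in the result was not tested. Input was well above background at 231 of 241 and 75 of 84 probes of these genes on the Dnmt1-KO arrays, where the software applied a stricter multiplier, and at all of them on the Eed-KO and WT arrays. There were 2 saturated probes, both in Dnmt1-KO.

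Enrichment was spread over the genes and not limited to the windows. The share of a gene's probes at a level of 1 or more had a median over the 8 genes of 55.0% in Dnmt1-KO, 37.2% in Eed-KO and 37.0% in WT cells, where the medians of 13554 genes with at least 20 probes were 12.5%, 0% and 0%. In Eed-KO and in WT 8 of 8 genes lay above the 95th percentile of those genes, which was 16.7% and 14.6%. In Dnmt1-KO 7 of 8 lay above it, at 41.9%, and the exception was Isl1 with 12.2%. With the arrays set to 1 spread, the median shares became 31.5% in Dnmt1-KO, 55.3% in Eed-KO and 53.9% in WT cells, so that Dnmt1-KO had the lowest in place of the highest, and 6 of 8 genes lay above the 95th percentile in Dnmt1-KO. The lowest shares in WT, as measured, were 17.1% at Isl1, 18.8% at Lmx1a and 23.3% at Lhx6, and the highest was 48.6% at Lhx2.

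The longest continuous stretch of enrichment, taken where the running mean over 3 probes was at least 1, was 4278 bp at Lhx8 in Dnmt1-KO, 2910 bp in Eed-KO and 3012 bp in WT cells. At Lhx6 it was 4355 bp in Dnmt1-KO, 3555 bp in Eed-KO and 2537 bp in WT cells, and it ran mainly into the gene. RefSeq has further Lhx6 promoters there, which hold the probes 547 bp, 701 bp and 1129 bp downstream of the start used here. At Isl1 the longest stretch was 690 bp in Dnmt1-KO, 1155 bp in Eed-KO and 648 bp in WT cells. Lhx6 and Lhx8 thus had the broadest enrichment in each genotype and Isl1 a narrow one.

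Enrichment lay on both sides of the starts and was less frequent further upstream. Over the 8 genes, 61 of 85 probes within 2 kb downstream of the start reached a level of 1 in Dnmt1-KO, 55 in Eed-KO and 47 in WT cells. Within 2 kb upstream 53 of 79 did so in Dnmt1-KO, 33 in Eed-KO and 33 in WT cells, and further upstream 28 of 129, 21 and 20. Of all probes without CpG within 3000 bp of a start, 9.0% reached a level of 1 in Dnmt1-KO, 2.11% in Eed-KO and 1.65% in WT cells. Of the CpG-rich probes there, as defined below, 65.0%, 8.23% and 7.76% did so in the same order. Higher counts in Dnmt1-KO were thus not particular to these genes, and counts by zone with the arrays set to 1 spread are not given. At Lhx6, 0 of 15 probes were at that level beyond 2 kb upstream in any genotype, and 11 of 11 in Dnmt1-KO, 9 in Eed-KO and 6 in WT were so within 2 kb downstream. Other genes had more on the upstream side, as Lhx1 in WT, with 8 of 9 probes within 2 kb upstream and 6 of 12 within 2 kb downstream.

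Profiles along the genes were alike between Eed-KO and WT, with correlations over a gene's 32 to 45 probes of 0.46 at Isl1 and between 0.76 and 0.90 at the others. Those of Dnmt1-KO with WT lay between 0.28 at Lhx9 and 0.73 at Lhx6. These are descriptions, since neighbouring probes share DNA fragments and each profile is 1 array. Lhx9 has a second annotated start upstream, and 4 probes around it, the longest enriched stretch of the gene in WT and so chosen on WT values, averaged 0.63 ± 0.31 in Dnmt1-KO, 1.31 ± 0.34 in Eed-KO and 1.16 ± 0.36 in WT cells (SD).

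**Figure D4:**
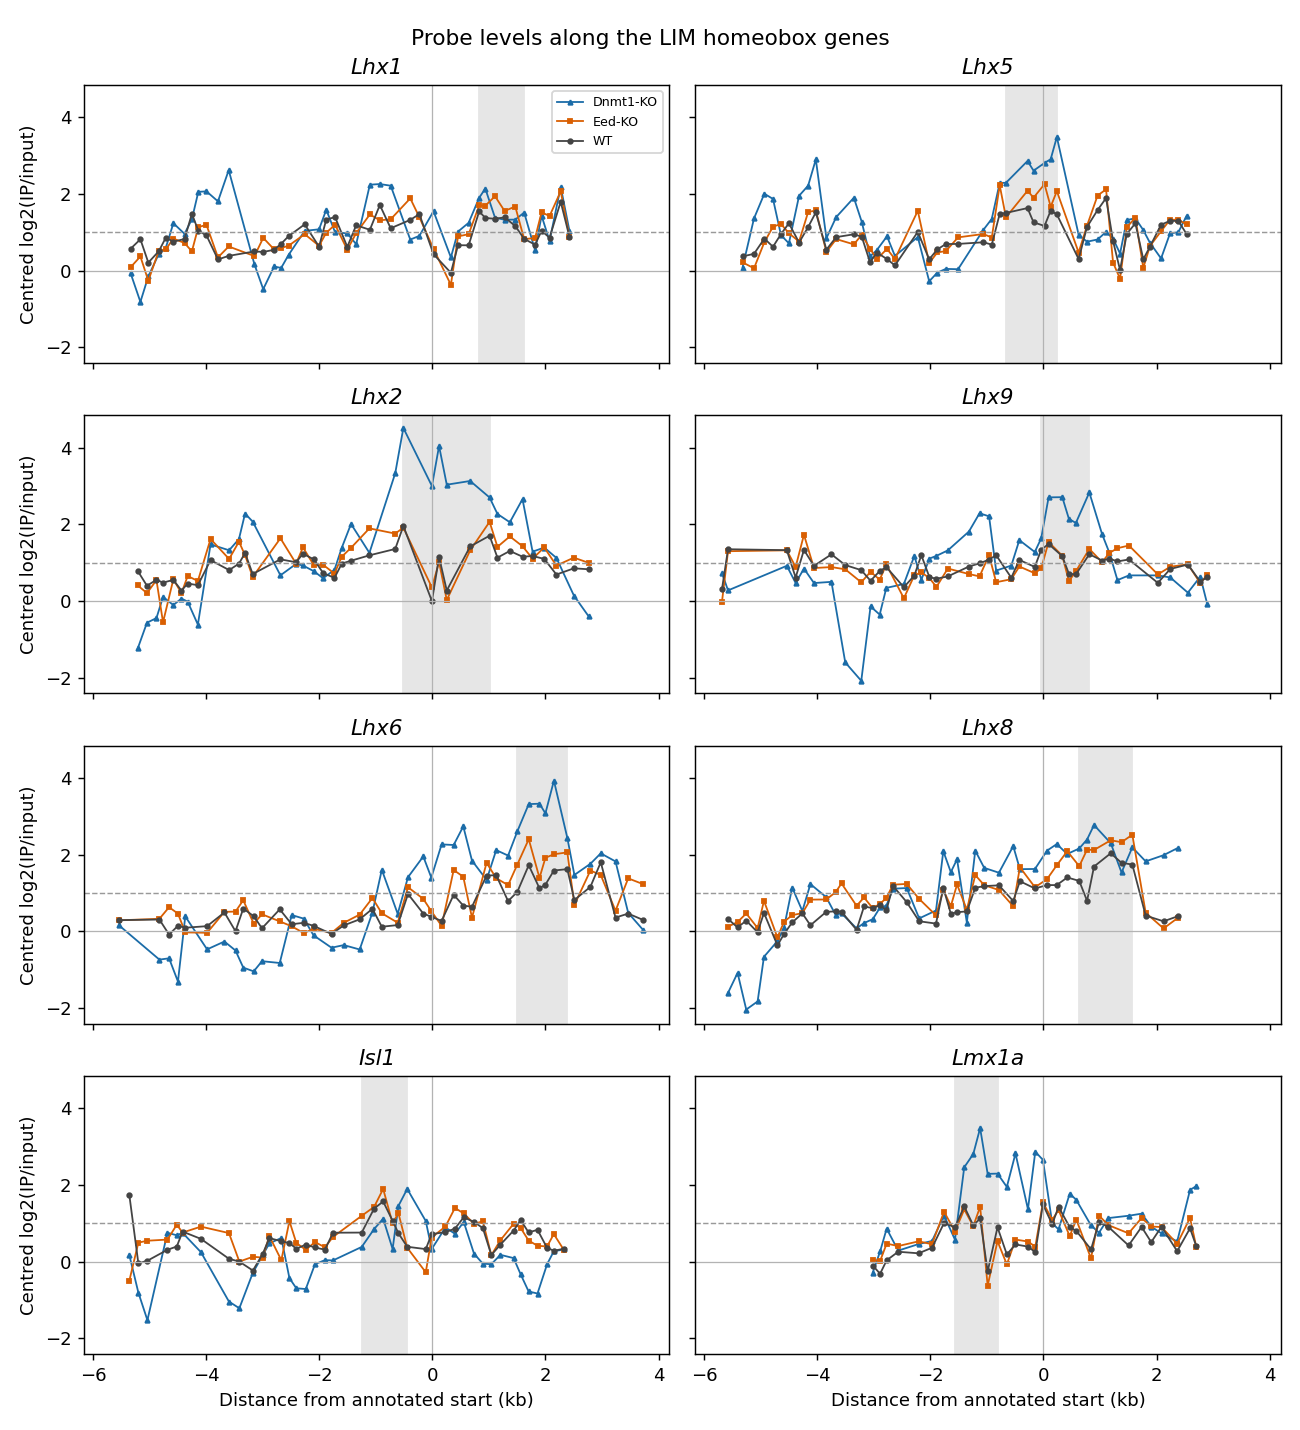
Level of each probe (y axis, centred log2 of IP over input) against its distance from the annotated start (x axis, kb, negative upstream) for the 8 LIM homeobox genes in Dnmt1-KO, Eed-KO and WT cells. Grey bands are the windows of 6 probes and the dashed line is the bound level of 1. Eed-KO and WT follow each other along most genes. Dnmt1-KO, as measured, is higher around the starts of Lhx2, Lhx5, Lhx6, Lhx8, Lhx9 and Lmx1a and lies below 0 at some upstream probes of every gene.

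Probe CpG content moved with the Dnmt1-KO difference, and it was not separated from G and C content. Over all probes the correlation of level with G and C content was 0.45 and 0.44 on the Dnmt1-KO arrays. It was 0.26 and 0.24 on the Eed-KO arrays and 0.30 and 0.29 on the WT arrays. With the trend on G and C content removed, the median Dnmt1-KO difference of the 8 genes was 0.91, against 1.32. The part of either content was not tested. At the 29 probes of these genes with at least 5 CpG per 100 bases, the median level was 2.07 in Dnmt1-KO, 1.21 in Eed-KO and 0.97 in WT cells. At the 126 probes without CpG it was 0.53 in Dnmt1-KO, 0.73 in Eed-KO and 0.65 in WT cells. The median difference, Dnmt1-KO minus WT, was 1.20 at the CpG-rich probes, 0.29 at the 170 probes in between and -0.14 at those without CpG. The same order appeared over all probes within 3000 bp of a start, with 0.86, 0.18 and -0.05, so it is not particular to these genes. For Eed-KO minus WT the median difference was -0.08 at the CpG-rich probes of these genes, with 13 of 29 higher in Eed-KO. It was thus not above 0 there, although the median level was higher in Eed-KO. At the probes in between and at those without CpG it was 0.12.

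With the arrays set to 1 spread, the 3 medians of Dnmt1-KO minus WT became 0.04, -0.42 and -0.55 for the LIM homeobox genes. For all probes they became 0.21, 0.002 and -0.02. Probes without CpG were enriched at these genes as well, since 22.2% of them reached a level of 1 in WT, against 1.65% of all such probes near starts. In Eed-KO these shares were 28.6% and 2.11%.

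**Figure D5:**
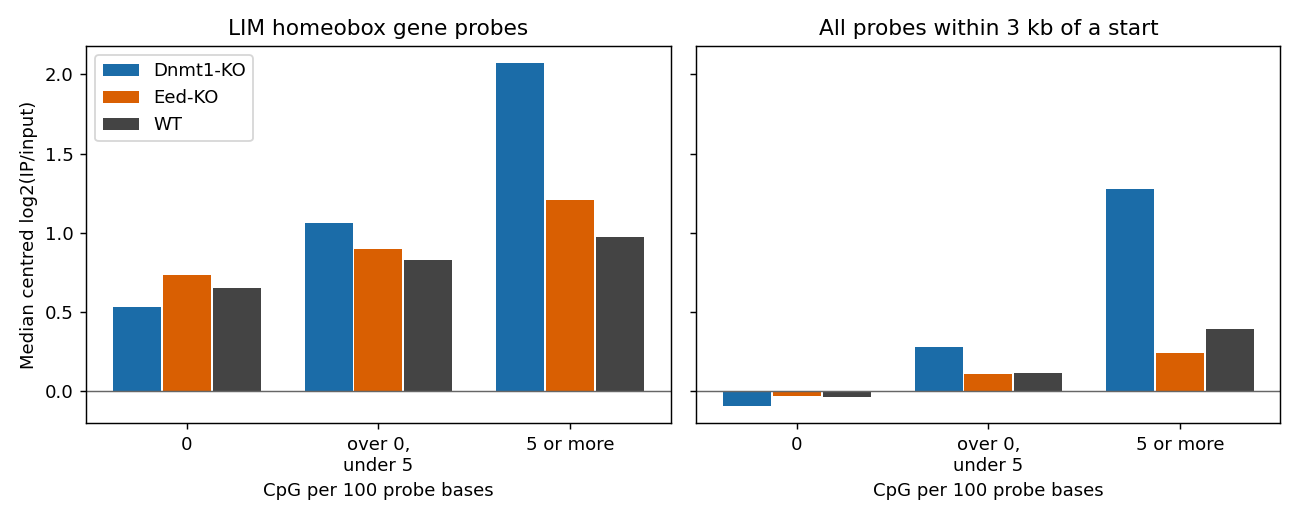
Median probe level (y axis, centred log2 of IP over input) by CpG per 100 probe bases (x axis), for probes of the 8 LIM homeobox genes on the left and all probes within 3 kb of a start on the right, in Dnmt1-KO, Eed-KO and WT cells. The level increases with CpG content most in Dnmt1-KO, reaching 2.07 at LIM homeobox genes, and the medians of probes without CpG are above 0.5 on the left and below 0 on the right.

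Of the related genes, the other LIM homeobox genes Isl2 and Lmx1b were bound in every genotype. Isl2, close in sequence to Isl1 and active in motor neurons, had a level of 1.90 in Dnmt1-KO, 1.77 in Eed-KO and 1.34 in WT cells. Lmx1b, which acts in limb, kidney and serotonin neurons, had 2.23 in Dnmt1-KO, 1.55 in Eed-KO and 1.13 in WT cells. Both differences from WT were 0.42 in Eed-KO.

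Genes whose proteins have LIM domains without a homeodomain stood near the background of all windows. Of 37 measured, 16 were bound in Dnmt1-KO, 1 in Eed-KO and 0 in WT cells, against 46.1%, 5.76% and 5.15% of all windows, and their median WT level was 0.30, against 0.27. The highest WT level was 0.97 at Crip2, which was the 1 bound in Eed-KO, at 1.35, and the lowest was -0.19 at Fhl5. The Eed-KO differences lay between -0.40 at Fhl2 and 0.38 at Crip2, and those of Dnmt1-KO between -0.09 at Lmcd1 and 1.51 at Pdlim1.

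The LIM-only genes and LIM cofactor genes encode partners of LIM homeodomain proteins. Of 10 measured, 7 were bound in Dnmt1-KO, 0 in Eed-KO and 1 in WT cells. The 1 bound in WT was Lmo4, with 2.10 in Dnmt1-KO, 0.78 in Eed-KO and 1.09 in WT cells, and its difference of -0.32 was the lowest of the list in Eed-KO. The highest Eed-KO difference was 0.18 at Rlim, a ubiquitin ligase acting on LIM cofactors. The lowest WT level was -0.04 at Lmo3, which also had the smallest Dnmt1-KO difference, 0.05, and the largest was 1.58 at Lmo2. The cofactor genes Ldb1 and Ldb2, named here after their values were seen, had WT levels of 0.10 and 0.03.

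Neural regulators that act with or downstream of LIM homeobox factors were mostly bound as well. Of 24 measured, 19 were bound in Dnmt1-KO, 16 in Eed-KO and 14 in WT cells, with medians of 1.94, 1.22 and 1.11. WT levels lay between -0.12 at Pou1f1, a pituitary factor, and 1.50 at Wnt1, a midbrain signal. The Eed-KO difference was above 0 at 18 of 24 genes, from -0.26 at Pou4f1 to 0.71 at Msx1, and the Dnmt1-KO difference ranged from -0.35 at Pou1f1 to 1.92 at Gsx2.

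The Pax family of developmental regulators, also with DNA-binding domains of the homeodomain or paired kind, had 8 of 9 genes bound in Dnmt1-KO, 6 in Eed-KO and 7 in WT cells. WT levels lay between 0.54 at Pax4 and 1.35 at Pax6. The Eed-KO difference ranged from -0.03 at Pax2 to 0.46 at Pax9, and that of Dnmt1-KO from -0.67 at Pax4 to 2.28 at Pax6. Levels of the neural and Pax lists thus overlapped those of the LIM homeobox genes in each genotype.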

How the data were processed

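Rybp ChIP-chip values came from 6 Agilent arrays, 1 per genotype and design. Per the file headers, the deposited intensity values are background-subtracted, dye-normalised processed signals from Agilent Feature Extraction, version 9.5.3.1 on scanner G2505B for Eed-KO and WT and version 10.1.1.1 on scanner G2505C for Dnmt1-KO, whereas the submitters' processing notes list 9.5.3.1 for all. The log10 ratios (Cy5 over Cy3) in the authors' value table matched the scanner log10 ratios plus 1 constant per array within 0.001 at 99.0% of probes or more, so the table's scale and direction are known and the choice of the centring constants is not. Its column medians on design 1 were -0.121 (Dnmt1-KO), -0.0317 (Eed-KO) and -0.025 (WT), and on design 2 -0.114, -0.0316 and -0.027.

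The log2 ratio of red over green deposited processed signal was centred on the median of each array. Of 474380 probes, 333 with outlier flags were left out, 0 of them among the 325 studied, and saturated probes were kept. Windows were runs of 6 probes spanning at most 3000 bp. Genes and coordinates were those annotated in the Dnmt1-KO files. Symbols were updated through RefSeq accessions (16943 of 17596 matched). All 8 measured genes are described, and of each other list the genes with the highest and lowest WT level and the largest and smallest differences. The genes and lists were chosen with earlier results of these data known. Calls are fixed rules of size without a test. Data were also simulated for the comparison of Eed-KO with WT over 16407 genes. In them 200 genes had a WT level well above the bound level and an Eed-KO shift of 1.5 up or down. Of these, 98.5% were bound and 98.0% called. The shifts were larger than every Eed-KO difference of the 8 genes, so the simulation checks the calculation only. It does not show how well differences of the size seen here are found. Alternatives included normexp background correction (limma 3.58.1, offset of 50), a lowess trend on GC content (span 0.3, 3 passes), the deposited table, other windows, other bound levels, probe filters and a common spread. Python 3.11.15 with numpy 2.4.6 and pandas 2.3.3 was used.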

Additional observations from a re-analysis of the deposited data

How the results depend on the processing

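Each value was recomputed under 12 alternatives, and bound counts under 2 further bound levels. A common spread with the windows kept, and with the region within 1000 bp of the start, were further alternatives. They were chosen after seeing the data and are included in the totals that follow. Of the 104 recomputed family counts and medians 86 stayed within 1.5 times the count, or within the probe SD for medians, as did 183 of 224 values of single genes. The Dnmt1-KO minus WT median became -0.20 with a common spread and the windows kept, -0.34 with a common spread and windows chosen anew, -0.28 with a common spread and the GC trend removed, and -0.40 within 1000 bp of the start with a common spread, and the number of genes higher by 2-fold became 0 in all 4 settings, against 0.729%, 0.539%, 0.301% and 0.0875% of all windows. That number was 3 within 1000 bp of the start, against 11.9%, and 3 with windows chosen on Eed-KO and WT, against 13.8%. The Dnmt1-KO minus WT difference turned negative with a common spread and windows chosen anew, without and with the GC trend removed, at Lhx2 (-0.40 and -0.24), Lhx5 (-0.28 and -0.33), Lhx6 (-0.047 and -0.034), Lhx9 (-0.12 and -0.079) and Lmx1a (-0.22 and -0.20). It did so too at the genes whose difference was under 1 as measured, Lhx1 (-0.73 and -0.73), Lhx8 (-0.81 and -0.75) and Isl1 (-0.71 and -0.95). With the windows kept it stayed above 0 at Lhx2 and Lmx1a (0.53 and 0.22). It was negative at Lhx1, Lhx5, Lhx6, Lhx8, Lhx9 and Isl1, whose windows were the same. Within 1000 bp of the start with a common spread it was -0.46 at Lhx5, -0.38 at Lhx9, -0.49 at Lhx1, -0.41 at Lhx8 and -0.66 at Isl1. It stayed above 0 there at Lhx2, Lhx6 and Lmx1a (0.67, 0.19 and 0.12). With windows chosen on Eed-KO and WT it was -0.35 at Isl1 and -0.55 at Lhx9, whose window moved to the upstream start. Apart from that window, the cause was not tested. The WT median was 1.60 with a common spread and the windows kept, 1.74 with windows chosen anew and 1.63 when the GC trend was removed too. Bound genes numbered 3 in Eed-KO and 0 in WT at a 3-fold level, against 0.704% and 0.276% of windows, 2 in WT with normexp background correction, 4 in Eed-KO within 1000 bp of the start, against 1.71%, and 5 in Dnmt1-KO there with a common spread, against 7.12%. No share of all windows is given for normexp background correction. The WT count of 2 there thus cannot tell a loss at these genes from lower levels everywhere. The median WT level of these genes was 0.83 there, against 1.19 as first measured. No paired analysis was possible because each genotype had 1 array per design.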

Other observations

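The probe 5355 bp upstream of the Isl1 start had a level of 0.17 in Dnmt1-KO, -0.49 in Eed-KO and 1.73 in WT cells, the highest WT level of any Isl1 probe, while its neighbours were low in WT. At Lhx9, 2 neighbouring probes 3504 bp and 3221 bp upstream of the start had -1.60 and -2.08 in Dnmt1-KO, 0.83 and 0.49 in Eed-KO and 0.94 and 0.80 in WT cells. Both were picked after their values were seen.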
